A study of Mus musculus with 6 samples.

Results

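The early granulocyte programme was followed through 10 genes in 6 bulk RNA-seq libraries of mouse long-term haematopoietic stem cells (LT-HSCs), the bone marrow cells that maintain blood formation. The genes were chosen by symbol and were Mpo, Ctsg, Elane, Prtn3, Ms4a3, Gfi1, Cebpa, Cebpe, Irf8 and Plac8, 10 of the 49997 genes in the count table. All 10 were found, and all 10 were among the 21445 genes kept by the filter on low counts. The cells came from the bone marrow of C57BL/6J mice aged 4 months and were sorted by flow cytometry into a population with high and a population with low Asrij, the endosomal and mitochondrial protein encoded by Ociad1. Each population gave 3 libraries, called here Asrij high and Asrij low, and no treatment is named for either. The genotype label gives the strain alone, and the labels do not say whether an engineered Ociad1 allele was present, how Asrij was read in the sort, how pure the gates were, or whether each library stands for its own mouse or mice. The deposited counts carry the name ArjKI, which may stand for a knock-in allele, but the labels do not explain it.

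The Asrij high libraries held 62732782 to 72855125 counts and the Asrij low libraries 24707012 to 46240743, so low levels are known less precisely in Asrij low. Levels are in CPM, a gene's count relative to its library's total, with trimmed-mean (TMM) factors between libraries, and are given as mean ± SD over 3 libraries per group. Fold changes are Asrij high over Asrij low on the log2 scale with their SE, and adjusted p-values come from edgeR's quasi-likelihood test over all 21445 genes. Ociad1 itself had 80.3 ± 5.76 CPM in Asrij high, against 51.6 ± 5.72 CPM in Asrij low (log2 0.64 ± 0.16, adjusted p = 0.0115), and its call was lost with library totals or upper quartile factors as the scaling (adjusted p = 0.133 and 0.0834) and without Asrij high replicate 1 (0.0831). The 10 most abundant genes took 19.4% of the counts of Asrij low replicate 3 and 5.15% to 9.99% in the other libraries. All 12 markers of LT-HSCs looked up were detected in both groups, at summed levels of 476 to 851 CPM in Asrij high, against 1635 to 1928 CPM in Asrij low. Kit alone gave 373, 456 and 305 CPM of these sums in Asrij high (replicates 1 to 3), against 729, 754 and 563 CPM in Asrij low. Of the 12 markers, 11 were called lower in Asrij high and 0 higher, against 17.7% and 21.7% of all genes tested.

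Azurophil or primary granules are the first granules that a neutrophil precursor makes, at the promyelocyte stage. Their best known proteins are myeloperoxidase and a family of serine proteases, whose genes switch on in granulocyte-monocyte progenitors and are switched off again as the cell matures. C/EBPα opens this programme, C/EBPε and GFI1 carry it towards the neutrophil, and IRF8 directs the same progenitors towards monocytes and dendritic cells. LT-HSCs themselves are known for low levels of the granule genes.

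In Asrij high 7 of the 10 genes were higher and 1 was lower, while 2 did not pass the test. Across all genes tested 21.7% were called higher and 17.7% lower, 39.4% in all, so the share called higher was well above the background and the single lower call was not. The 10 genes were chosen with earlier results of these data known, so this is a description and not a test. The same 7 genes lay higher in every Asrij high library than in any Asrij low library, which held for 30.2% of all genes, and none of the 10 lay lower without overlap, which held for 24.8%. The median log2 fold change was 2.01 for the 10 genes and -0.02 for all genes. Scaling by library totals or by upper quartile factors moved the median of all genes by -0.27 and changed the direction of none of the 10. Without Asrij high replicate 1 the number called higher was 4. The number called lower was 0 without Asrij high replicate 1 or 3 or without Asrij low replicate 2 or 3, and 2 without Asrij high replicate 2. In bulk RNA, fewer cells of a type and less RNA per cell cannot be told apart, for any of these genes.

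**Figure D1:**
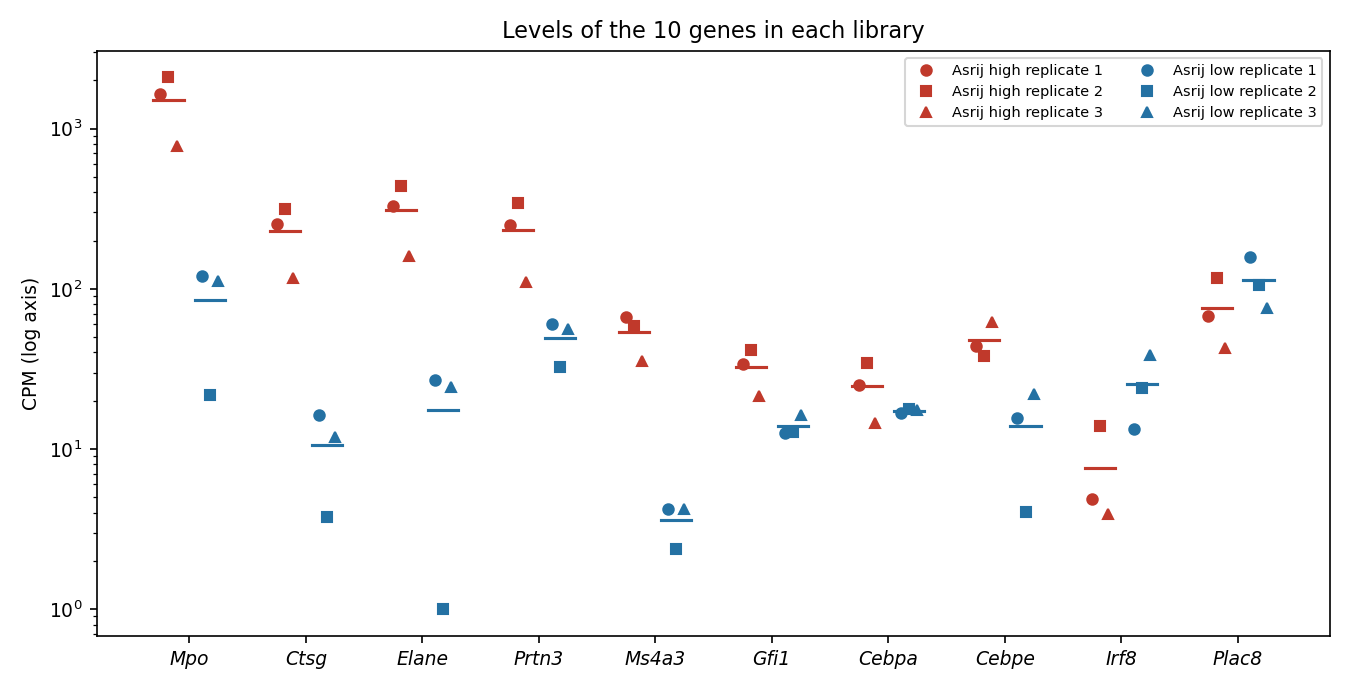
Level of each of the 10 genes in the 3 Asrij high libraries (red, left of each pair) and the 3 Asrij low libraries (blue, right), in CPM on a log axis, with bars at the group means. Mpo, Ctsg, Elane, Prtn3, Ms4a3, Gfi1 and Cebpe show no overlap between groups, and Elane spreads most within Asrij low, with 1.0 CPM in replicate 2.

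Mpo encodes myeloperoxidase, the haem enzyme that makes hypochlorous acid in the granule (chromosome 11, 87793784 to 87804412, GRCm38). It had 1645, 2090 and 777 CPM in the Asrij high libraries (replicates 1 to 3), against 120, 21.6 and 112 CPM in the Asrij low libraries. The groups were far apart, and the lowest Asrij low library was replicate 2. Mpo averaged 1504 ± 667 CPM in Asrij high, against 84.3 ± 54.4 CPM in Asrij low, a 17.8-fold difference (log2 4.16 ± 0.69, adjusted p = 0.00306), and only 0.699% of all genes tested had a larger positive log2 fold change. By abundance it was the 33rd, 14th and 137th gene of the Asrij high libraries and the 1450th, 7684th and 1508th of the Asrij low libraries. Without Asrij high replicate 1 the value was 4.01 and the call was lost (adjusted p = 0.0536, range over 15 alternatives 1.75e-14 to 0.0536).

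The other granule genes were 3 serine proteases. Ctsg encodes cathepsin G, a chymotrypsin-like protease (chromosome 14, 56099885 to 56102574), and had 252, 316 and 116 CPM in Asrij high, against 16.2, 3.78 and 11.9 CPM in Asrij low. As for Mpo, the Asrij high libraries stood clear of the others and Asrij low replicate 2 was the lowest. Ctsg had the largest fitted fold change of the 10 genes, 21.3-fold (log2 4.42 ± 0.60, adjusted p = 0.00146), and kept its call in all 15 alternatives.

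Elane encodes neutrophil elastase, and mutations of the human gene cause severe congenital and cyclic neutropenia (chromosome 10, 79886312 to 79888216). It had 327, 441 and 161 CPM in Asrij high, against 26.9, 1.0 and 24.3 CPM in Asrij low. The low value of Asrij low replicate 2 rests on 29 counts and made the spread within Asrij low 26.8-fold, the widest of the 10 genes. The difference was 17.7-fold with a wide 95% interval (log2 4.15 ± 1.04, interval 1.68 to 6.61, adjusted p = 0.0185). The call was lost without Asrij high replicate 1, 2 or 3 (adjusted p = 0.155, 0.106 and 0.0641, with 0.0014 to 0.155 across the alternatives) and with no filter on low counts (0.109). The log2 fold change stayed between 3.63 and 4.65 with any 1 library left out.

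Prtn3 encodes proteinase 3, the target of autoantibodies in human granulomatosis with polyangiitis, and lies 3138 bases before Elane on the same strand (chromosome 10, 79879667 to 79883174). It had 249, 341 and 111 CPM in Asrij high, against 60.0, 32.6 and 56.1 CPM in Asrij low. Its Asrij low values were the closest to its Asrij high values among the granule genes, and the difference was 4.72-fold (log2 2.24 ± 0.41, adjusted p = 0.00341), called in all 15 alternatives. Its interval of 1.31 to 3.16 overlaps that of Elane and, narrowly, that of Ctsg (3.01 to 5.82), and the difference between them was not tested.

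The RefSeq windows from 250 bases before to 50 after the start site (GRCm38.p6) are shown for these 4 genes because they moved together. Capitals mark exact matches, on either strand, to 6 short motifs: TTGCNNA for C/EBP factors, GAGGAA for PU.1 and other ETS factors, CAACNG for MYB, TGTGGT for RUNX, AAATCA for the GFI1 core and TATAAA for the TATA box. The windows are chr11:87793534-87793833 (plus strand) for Mpo, chr14:56102525-56102824 (minus strand) for Ctsg, chr10:79886062-79886361 (plus strand) for Elane and chr10:79879417-79879716 (plus strand) for Prtn3, each written 5′ to 3′ along its gene.
Mpo: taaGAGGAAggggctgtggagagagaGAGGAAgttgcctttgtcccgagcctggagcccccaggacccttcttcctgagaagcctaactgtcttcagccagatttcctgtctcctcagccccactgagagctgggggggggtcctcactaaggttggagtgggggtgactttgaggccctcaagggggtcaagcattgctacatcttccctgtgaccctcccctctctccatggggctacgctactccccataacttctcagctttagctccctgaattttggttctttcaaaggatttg
Ctsg: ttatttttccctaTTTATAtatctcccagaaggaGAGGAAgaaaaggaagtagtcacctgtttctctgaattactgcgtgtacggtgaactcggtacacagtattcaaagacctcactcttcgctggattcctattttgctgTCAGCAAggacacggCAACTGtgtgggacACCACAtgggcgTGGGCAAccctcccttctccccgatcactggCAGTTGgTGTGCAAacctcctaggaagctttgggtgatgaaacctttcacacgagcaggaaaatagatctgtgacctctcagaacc
Elane: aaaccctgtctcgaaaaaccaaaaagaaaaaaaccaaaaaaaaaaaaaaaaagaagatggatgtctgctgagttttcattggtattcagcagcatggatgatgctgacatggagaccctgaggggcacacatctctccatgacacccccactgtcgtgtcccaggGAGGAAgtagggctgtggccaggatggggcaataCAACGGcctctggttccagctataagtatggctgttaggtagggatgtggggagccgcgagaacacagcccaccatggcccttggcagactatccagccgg
Prtn3: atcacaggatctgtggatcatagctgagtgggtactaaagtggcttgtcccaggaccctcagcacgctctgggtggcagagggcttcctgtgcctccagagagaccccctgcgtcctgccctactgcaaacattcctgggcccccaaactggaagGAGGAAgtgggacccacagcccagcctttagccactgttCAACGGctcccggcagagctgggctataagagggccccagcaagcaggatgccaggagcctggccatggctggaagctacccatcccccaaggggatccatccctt

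All 4 windows held GAGGAA, which 28.3% of all 32851 mouse windows held. Elane and Prtn3 carried it in the same order with a MYB match of the same letters, GAGGAA at -85 and CAACGG at -51 in Elane, and GAGGAA at -95 and CAACGG at -56 in Prtn3. In Mpo both GAGGAA matches lay farther out, at -247 and -224, and it had no match to the other 5 motifs. The Ctsg window was the most varied, with 3 C/EBP matches, 2 MYB matches and 1 each of the ETS, RUNX and TATA motifs. Counting the first RefSeq window of each of the 9 genes with one, 6 held GAGGAA, 4 CAACNG (35% of all windows), 3 TTGCNNA (37.1%), 3 TATAAA (13.6%), 2 TGTGGT (16.8%) and 1 AAATCA (14.0%). Gfi1, Irf8 and Plac8 have a second window at another start site, and over all 12 windows TTGCNNA was found for 5 genes and CAACNG for 5, with the other counts as before. In Ms4a3 a C/EBP match and GAGGAA overlap. These are matches of letters only.

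**Figure D2:**
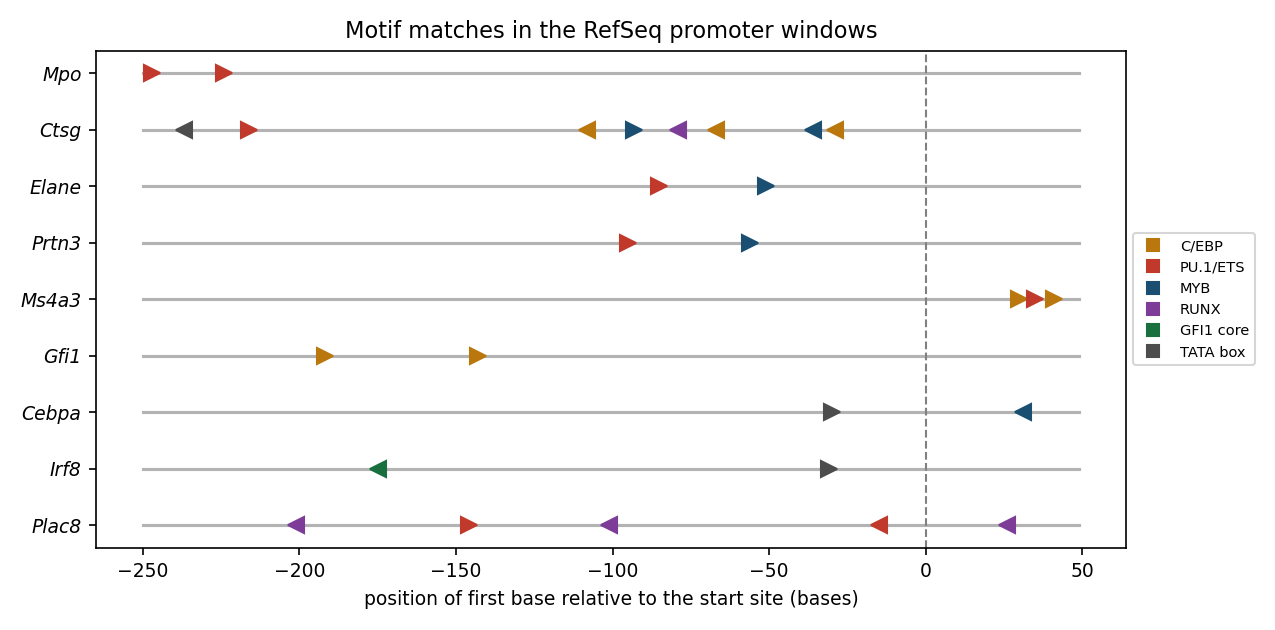
Position of each motif match in the first window of 9 genes, in bases from the start site (dashed line at 0), with triangles pointing along the strand of the match and coloured by motif. Elane and Prtn3 share the pair of an ETS and a MYB match between -95 and -51.

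Summed, the 4 granule genes took 0.215%, 0.306% and 0.105% of all counts in Asrij high, against 0.0260%, 0.00634% and 0.0214% in Asrij low. The means were 0.209 ± 0.101% in Asrij high and 0.0179 ± 0.0103% in Asrij low, a ratio of 11.7. Leaving the 10 most abundant genes out of the totals gave a ratio of 10.8, and leaving out Mpo gave 8.26. Per kilobase of transcript, the scale on which genes can be compared, Mpo led in Asrij high with 547 ± 243 CPM per kb, followed by Elane (315), Ctsg (228) and Prtn3 (228), whose spreads overlap. In Asrij low the order was Prtn3 with 48.4 ± 14.5 CPM per kb, Mpo with 30.7 ± 19.8, Elane with 17.7 ± 14.5 and Ctsg with 10.6 ± 6.30, and neighbours in that order did not differ beyond their spread.

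The proportions of the granule genes to one another also differed between libraries. Elane counts per Mpo count were 0.199, 0.211 and 0.208 in Asrij high, against 0.225, 0.0464 and 0.217 in Asrij low, so Asrij low replicate 2 alone stood apart. Ctsg counts per Mpo count were 0.153, 0.151 and 0.149 in Asrij high, against 0.135, 0.174 and 0.107 in Asrij low, and the groups overlapped in this range. Prtn3 counts per Mpo count were 0.152, 0.163 and 0.142 in Asrij high, against 0.502, 1.51 and 0.502 in Asrij low, with no overlap. Thus the mixture of granule transcripts was nearly the same in the 3 Asrij high libraries, although their summed level differed among them, and Prtn3 made up more of it in Asrij low.

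**Figure D3:**
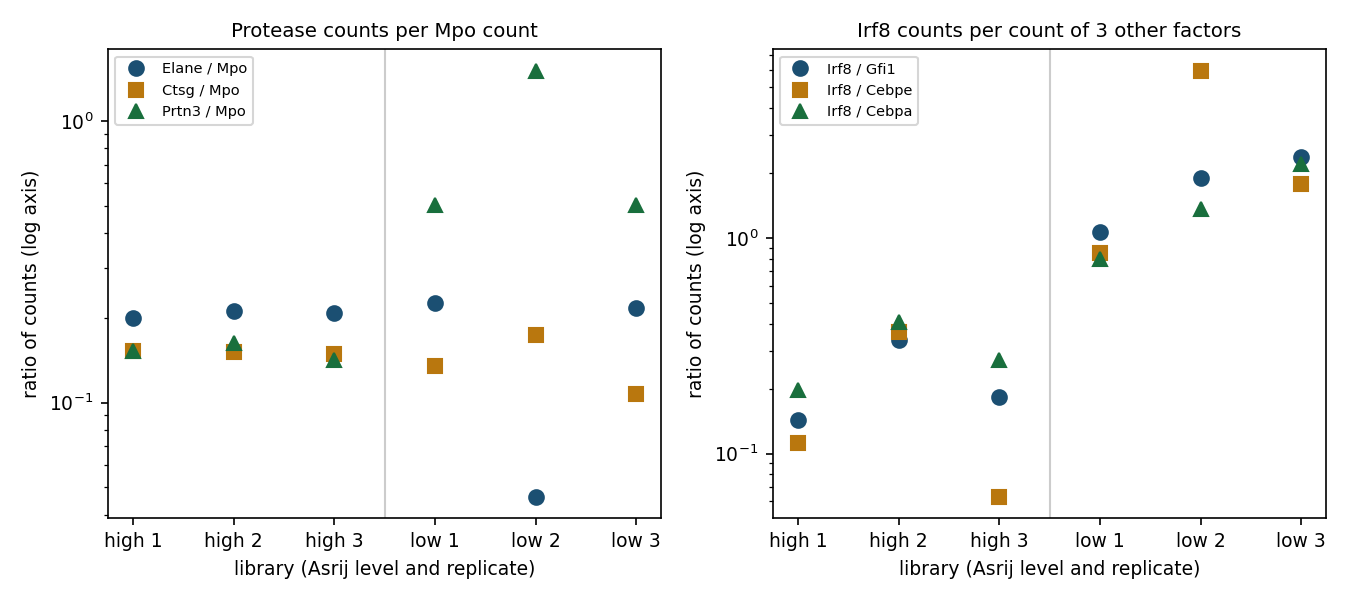
Ratios of raw counts per library on log axes, Asrij high libraries left of the grey line and Asrij low libraries right of it. Left, protease counts per Mpo count, with Prtn3 at 0.142 to 0.163 in Asrij high and 0.502 to 1.51 in Asrij low; right, Irf8 counts per count of Gfi1, Cebpe or Cebpa, each ratio lower in every Asrij high library than in any Asrij low library.

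Of the progenitor surface and cytoplasmic genes, Ms4a3 was higher in Asrij high and Plac8 was not called. Ms4a3 encodes a membrane protein used in mice to mark granulocyte-monocyte progenitors and their progeny (chromosome 19, 11629499 to 11640851). It had 67.1, 58.6 and 35.4 CPM in Asrij high, against 4.24, 2.36 and 4.21 CPM in Asrij low. The spread within groups was small beside the distance between them, and the 14.9-fold difference had the smallest adjusted p of the 10 genes (log2 3.89 ± 0.34, adjusted p = 2.04e-04), with a call in all 15 alternatives. Plac8 encodes a small cysteine-rich protein found in myeloid and lymphoid cells (chromosome 5, 100551589 to 100572253). It had 67.8, 117 and 42.8 CPM in Asrij high, against 158, 106 and 75.7 CPM in Asrij low, and the groups overlapped. Its log2 fold change of -0.58 ± 0.38 did not pass the test (95% interval -1.44 to 0.28, adjusted p = 0.253), but without Asrij high replicate 2 it was -1.0 and was called lower (adjusted p = 0.0461, range over alternatives 0.0196 to 0.681). Per kilobase Plac8 had 61.9 ± 30.7 CPM in Asrij high, against 92.6 ± 34.2 CPM in Asrij low, the highest mean of the 10 genes in Asrij low.

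The 4 transcription factors did not move as one. Gfi1 encodes a zinc finger repressor needed for neutrophil formation (chromosome 5, 107716655 to 107725805). It had 34.1, 41.5 and 21.5 CPM in Asrij high, against 12.5, 12.7 and 16.4 CPM in Asrij low. Every Asrij high library lay above every Asrij low library, by 2.33-fold in the fit (log2 1.22 ± 0.28, adjusted p = 0.00736), and the call held in all 15 alternatives. Cebpe encodes C/EBPε, needed for the last steps of neutrophil maturation (chromosome 14, 54710363 to 54712174). It had 43.7, 38.1 and 62.1 CPM in Asrij high, against 15.7, 4.05 and 21.9 CPM in Asrij low. The 3.45-fold difference passed the test (log2 1.79 ± 0.52, adjusted p = 0.025), but not without Asrij high replicate 1, 2 or 3 (adjusted p = 0.128, 0.0637 and 0.125) or Asrij low replicate 1 (0.0543), nor with upper quartile factors (0.0532) or with no filter on low counts (0.167).

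Cebpa encodes C/EBPα, without which granulocyte-monocyte progenitors do not form in mice, and has 1 exon (chromosome 7, 35119293 to 35121928). It had 24.9, 34.5 and 14.5 CPM in Asrij high, against 16.7, 17.7 and 17.6 CPM in Asrij low. The Asrij high libraries spread to both sides of the Asrij low libraries, and the difference was not called in the test or in any of 15 alternatives (log2 0.51 ± 0.30, 95% interval -0.17 to 1.18, adjusted p = 0.214). The interval includes no change and a rise of more than 2-fold.

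Irf8 was the 1 gene of the 10 called lower in Asrij high. It encodes interferon regulatory factor 8, and mice without it make too many granulocytes and too few monocytes (chromosome 8, 120736358 to 120756694). It had 4.89, 14.0 and 3.93 CPM in Asrij high, against 13.3, 24.1 and 38.7 CPM in Asrij low. The groups overlapped, since Asrij high replicate 2 lay above Asrij low replicate 1. The means were 7.60 ± 5.56 CPM in Asrij high, against 25.4 ± 12.7 CPM in Asrij low (log2 -1.74 ± 0.54, 95% interval -2.97 to -0.51, adjusted p = 0.032). Without Asrij high replicate 2 the value was -2.49. The call was lost without Asrij high replicate 1 or 3 (adjusted p = 0.126 and 0.0886), without Asrij low replicate 2 or 3 (0.0584 and 0.0948) and with no filter on low counts (0.117), over a range of 0.0011 to 0.126. Its first window (chr8:120736108-120736407, plus strand, GRCm38.p6) is shown because Irf8 went the other way, with capitals as above.
Irf8: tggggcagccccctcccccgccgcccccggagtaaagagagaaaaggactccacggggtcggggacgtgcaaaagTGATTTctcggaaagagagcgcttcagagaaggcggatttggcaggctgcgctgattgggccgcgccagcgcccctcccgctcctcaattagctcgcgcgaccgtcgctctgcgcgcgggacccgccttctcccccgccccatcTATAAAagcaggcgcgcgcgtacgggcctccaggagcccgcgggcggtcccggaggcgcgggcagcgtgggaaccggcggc

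The first Irf8 window held a GFI1 core match on the minus strand at -175 and a TATA box at -31, and no ETS, MYB, C/EBP or RUNX match. The second (chr8:120738389-120738688, plus strand) held a GFI1 core match on the minus strand at -226 and a C/EBP match at -190. Set against the neutrophil factors within each library, Irf8 was lower in every Asrij high library. Irf8 counts per Gfi1 count were 0.143, 0.337 and 0.183 in Asrij high, against 1.06, 1.89 and 2.36 in Asrij low. Irf8 counts per Cebpe count were 0.112, 0.367 and 0.0632 in Asrij high, against 0.848, 5.96 and 1.77 in Asrij low. Neither ratio overlapped between groups, whereas Irf8 alone did. Gfi1 and Cebpe were themselves higher without overlap, so the separation of these ratios was largely built in and is no firmer result for Irf8. Irf8 counts per Cebpa count were 0.196, 0.406 and 0.271 in Asrij high, against 0.798, 1.36 and 2.19 in Asrij low. This ratio did not overlap either, although Cebpa was not called, and its difference was not tested. Per kilobase the factors stood at 38.7 ± 10.1 (Cebpe), 11.3 ± 3.54 (Gfi1), 9.38 ± 3.81 (Cebpa) and 2.67 ± 1.95 CPM per kb (Irf8) in Asrij high. In Asrij low they were at 11.2 ± 7.30 (Cebpe), 4.86 ± 0.762 (Gfi1), 6.61 ± 0.210 (Cebpa) and 8.92 ± 4.47 CPM per kb (Irf8), so Irf8 had the lowest mean of them in Asrij high, whereas in Asrij low its spread overlapped those of the other 3.

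**Figure D4:**
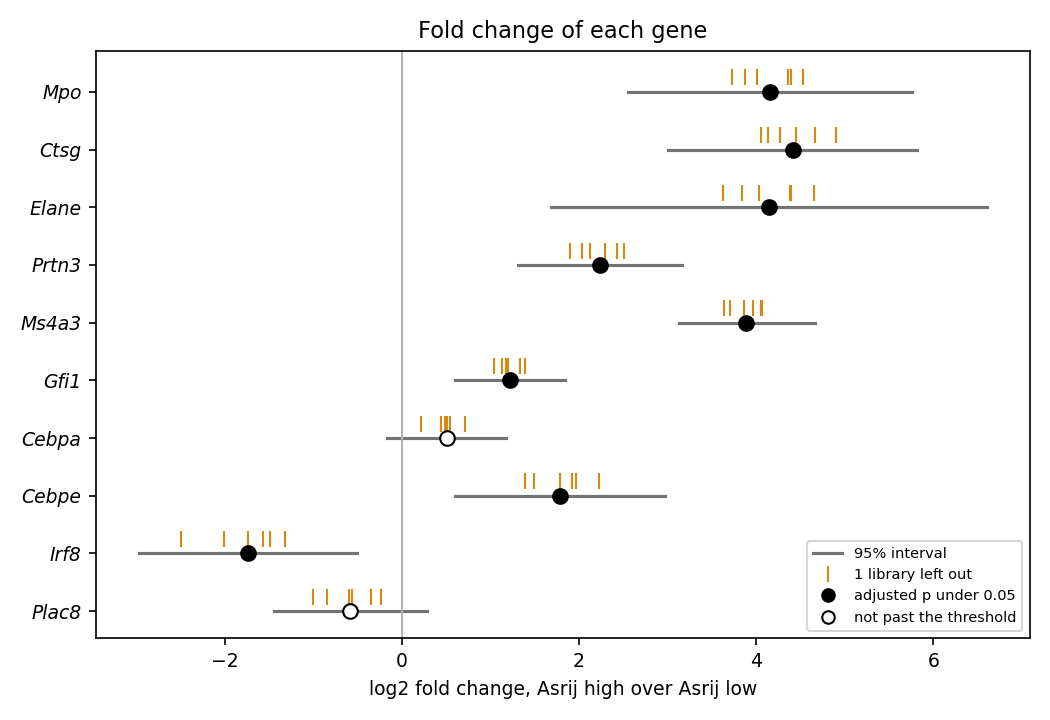
Log2 fold change of each gene, Asrij high over Asrij low, with its 95% interval (grey), and the value with each library left out in turn (orange ticks); filled points passed an adjusted p of 0.05. No tick crosses 0 for any gene, and the intervals of Cebpa and Plac8 include 0.

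In Asrij high most of the genes followed the same libraries. There, replicate 2 had the highest level of 8 of the 10 genes and replicate 3 the lowest of 9. Cebpe ran the other way, highest in replicate 3 and lowest in replicate 2. The summed late neutrophil markers had the order of Cebpe, with 2584, 1331 and 7100 CPM in Asrij high replicates 1 to 3. In Asrij low, replicate 2 had the lowest level of 6 of the 10 genes (Mpo, Ctsg, Elane, Prtn3, Ms4a3 and Cebpe), and there the summed late neutrophil markers were lowest as well, with 1060 CPM against 3085 and 4512 CPM in replicates 1 and 3.

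Among 10707 genes with a mean of at least 10 CPM, those whose log2 CPM was most like that of Mpo over the 6 libraries were Bckdk (Pearson r = 0.997), Ctsg (0.996), Rfng (0.996), Prss57 (0.994) and Mrps24 (0.994). Those most like Irf8 were Emb (0.996), Gm52051 (0.988), Tmem254a (0.987), Gm20590 (0.986) and Fyb (0.981). These values describe 6 points that share the difference between groups. Likeness of pattern did not mean likeness of size, since Bckdk was at 58.6 ± 3.83 CPM in Asrij high, against 41.0 ± 3.96 CPM in Asrij low.

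The genes next to the granule loci were mostly not called, where 39.4% of all genes tested were called. Lpo, which encodes lactoperoxidase and lies 2016 bases after Mpo, was the exception, with 1.86 ± 0.511 CPM in Asrij high, against 0.213 ± 0.192 CPM in Asrij low, where replicate 2 had no count (log2 3.07 ± 1.01, adjusted p = 0.0369). On the other side of Mpo, Tspoap1 had a log2 fold change of 0.64 ± 0.26 (adjusted p = 0.0765). Beside Prtn3 and Elane, the values were -0.37 ± 0.26 for Plppr3 (adjusted p = 0.276) and 0.12 ± 1.34 for Cfd (0.953), which encodes complement factor D. Of the neighbours of Ctsg, Mcpt8 was at -1.65 ± 0.96 (adjusted p = 0.203) and Gzme had no count in any library. Cfd and Mcpt8 averaged only 0.362 and 1.56 CPM over all libraries and Gzme was not tested, so their lack of a call says little. Lpo lost its call without Asrij high replicate 1, 2 or 3 (adjusted p = 0.16, 0.0749 and 0.0913), without Asrij low replicate 3 (0.0619) and with library totals or upper quartile factors (0.0598 and 0.0607).

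Genes of other granule proteins and of lysosomes were called in both directions. Of 17 tested, 3 were higher and 5 lower, near the background shares, with a median log2 fold change of -0.03. The lower genes included Epx (-2.06) and Ear2 (-2.37), which encode granule proteins of eosinophils and were named after their values were seen. Prss57, which encodes the fourth neutrophil serine protease, had 35.8 ± 10.1 CPM in Asrij high, against 10.9 ± 4.17 CPM in Asrij low (log2 1.72 ± 0.35, adjusted p = 0.00459). The lysosomal glucuronidase gene Gusb (0.88) and the protease inhibitor gene Serpinb1a (0.62) were higher too. Ctsc, which encodes the dipeptidyl peptidase that activates the granule proteases, was lower, with 18.6 ± 6.76 CPM in Asrij high, against 36.3 ± 4.18 CPM in Asrij low (log2 -0.97 ± 0.27, adjusted p = 0.0187). The lysosomal mannosidase gene Man2b1 (-0.59) was lower as well. The most abundant of the list, the lysosomal protease gene Ctsd, was at 198 ± 16.1 CPM in Asrij high, against 203 ± 11.3 CPM in Asrij low. The number called lower was 2 without Asrij high replicate 1 and 3 without Asrij high replicate 3 or any 1 of the Asrij low libraries. Serpinb1a lost its call without Asrij high replicate 1 or 3 (adjusted p = 0.0502 and 0.0681) and with library totals (0.0981) or upper quartile factors (0.0676). Ctsc lost it without Asrij high replicate 1 or 3 or Asrij low replicate 2 (0.0544, 0.0526 and 0.0566), and Man2b1 without any 1 library but Asrij high replicate 2 (0.0542 to 0.11).

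Of 26 tested genes for folding, processing and sorting of granule proteins and of inherited neutropenia, 11 were higher and 5 lower, with a median of 0.28. Of all genes tested, 21.7% were higher and 17.7% lower. This balance depended on the scaling, with 9 higher and 9 lower with library totals, 10 higher and 9 lower with upper quartile factors, and a median of 0.01 with either. The endoplasmic reticulum chaperone genes Canx and Calr, whose products fold glycoproteins such as myeloperoxidase, had log2 fold changes of 1.73 ± 0.24 and 1.17 ± 0.19 (adjusted p = 9.15e-04 and 0.00185). Canx averaged 2013 ± 433 CPM in Asrij high, against 605 ± 138 CPM in Asrij low. Hax1 (1.02) and Jagn1 (1.25), whose human counterparts are mutated in severe congenital neutropenia and which were named after their values were seen, were higher as well. Srp54b, a signal recognition particle gene with near-identical copies among which reads may be split, was at 0.92. Its copies Srp54a (0.95) and Srp54c (0.84) are also counted among the 11 higher genes, so these calls may not be separate. The lower genes included Unc13d (-0.56), for granule exocytosis, and Taz (-0.48), for cardiolipin remodelling. The number called lower was 1 when Asrij high replicate 1 or 3 was left out, 3 when Asrij high replicate 2 was, 2 when Asrij low replicate 1 was and 3 when Asrij low replicate 3 was. Unc13d lost its call without Asrij high replicate 1 or 3 or Asrij low replicate 1 or 2 (adjusted p = 0.0525 to 0.137), and Taz without any 1 library but Asrij low replicate 2 (0.0752 to 0.148) and with no filter on low counts (0.182).

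**Figure D5:**
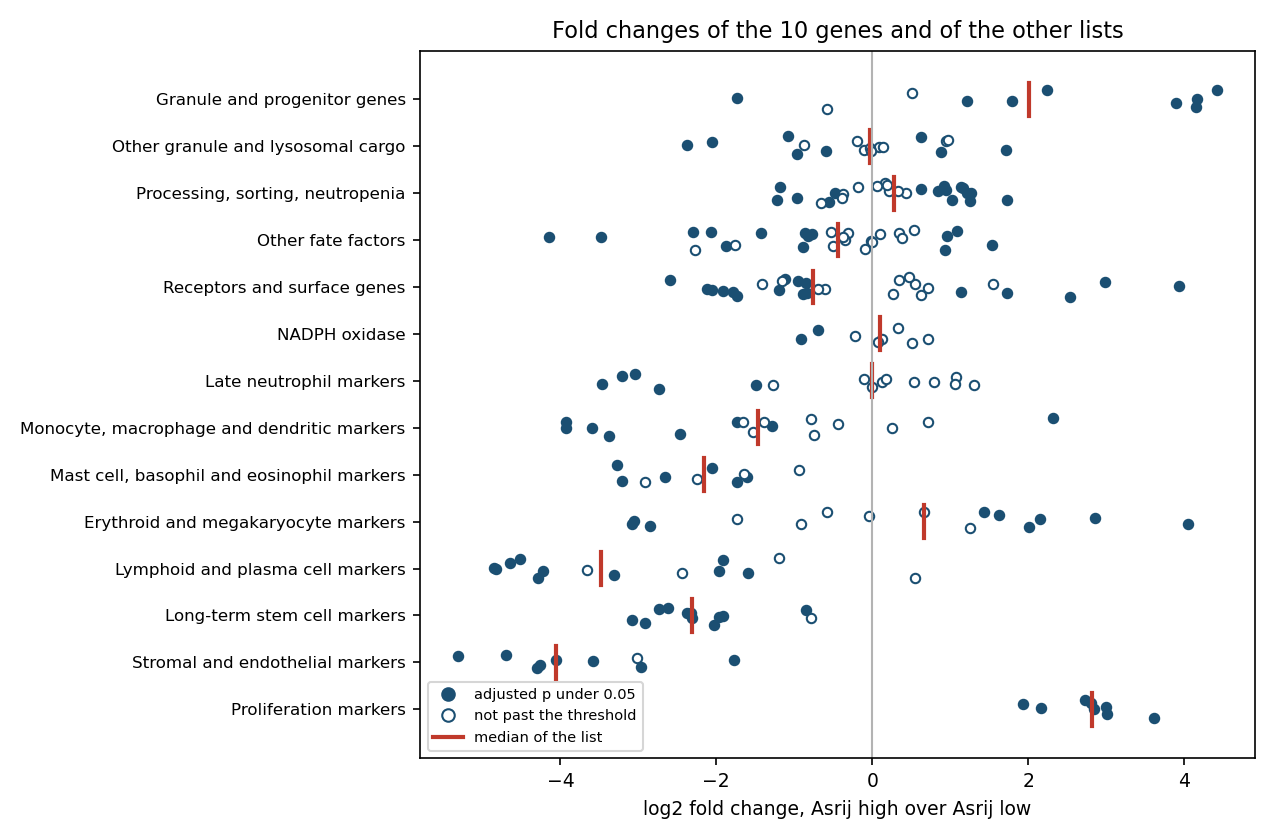
Log2 fold change, Asrij high over Asrij low, of every tested gene of the 10 genes (top row) and of 13 other lists, with filled points past an adjusted p of 0.05 and red bars at the medians. The median is 2.01 for the 10 genes, 2.83 for proliferation markers and below 0 for monocyte, mast cell, lymphoid, stem cell and stromal markers. It is also below 0 for other fate factors (-0.43), receptors and surface genes (-0.77) and, barely, other granule and lysosomal cargo (-0.03).

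Other factors of granulocyte and monocyte fate were more often lower, 10 of 28 against 4 higher, with a median of -0.43. Over all genes tested 17.7% were lower and 21.7% higher. The higher genes were Gfi1b, a relative of Gfi1 known for erythroid and megakaryocyte cells (log2 1.54 ± 0.22, adjusted p = 0.00106), and Rcor1 (0.93), Hdac1 (0.96) and Hdac2 (1.09), whose products work with GFI1 and GFI1B in repression. Spi1, which encodes PU.1, had 33.8 ± 4.69 CPM in Asrij high, against 57.7 ± 5.01 CPM in Asrij low (-0.77 ± 0.18, adjusted p = 0.00818). Runx1 (-0.86), Irf2 (-0.82) and Etv3 (-0.89) were lower too, and Myb, the most abundant, was at 535 ± 82.5 CPM in Asrij high, against 542 ± 93.1 CPM in Asrij low. Spi1 and Hdac2 were named after their values were seen.

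Receptors and surface genes of the same progenitors split. Of 28 tested, 5 were higher and 12 lower, with a median of -0.77. The shares over all genes tested were 21.7% higher and 17.7% lower, so the 5 higher calls were near the background. Fcnb, which encodes ficolin B of the granule matrix, had 143 ± 47.5 CPM in Asrij high, against 18.0 ± 12.6 CPM in Asrij low (log2 2.99 ± 0.57, adjusted p = 0.00525), and Clec12a (2.54), an inhibitory lectin receptor of myeloid cells, and Atp8b4 (1.73) were higher as well. The lower genes included the growth factor receptor genes Csf3r, for G-CSF (-1.78 ± 0.37, adjusted p = 0.00596), and Kit, for stem cell factor (-0.85 ± 0.20, adjusted p = 0.00963), and the progenitor surface gene Cd34 (-1.92). Without Asrij high replicate 1, 2 were higher and 7 lower. Without Asrij high replicate 3, 3 were higher and 6 lower. The number higher was also 3 without Asrij low replicate 1, and the number lower was 7 without Asrij low replicate 3. Fcnb and Csf3r lost their calls without Asrij high replicate 1 (adjusted p = 0.0706 and 0.0559), these and Cd34 with no filter on low counts (0.0607, 0.069 and 0.0606), and Fcnb was at 3.59 without Asrij low replicate 3.

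Of the 8 genes of the NADPH oxidase, the enzyme complex whose superoxide feeds myeloperoxidase, 0 were called higher by edgeR and 2 were lower, with a median of 0.10. Rac2, which encodes its small GTPase, was at -0.70 ± 0.23 (adjusted p = 0.0359). Rac2 lost its call, leaving 1, without Asrij high replicate 1 or 3 or Asrij low replicate 1 or 3 (adjusted p = 0.0754 to 0.147). Of 15 markers of later neutrophils, 0 were called higher and 5 were lower. Over all genes tested 21.7% were higher and 17.7% lower, so 2 of 8 lower was near the background and 0 of 8 higher says little. In both lists 0 genes were higher at an unadjusted p under 0.05 too, or by DESeq2 or limma-voom. The lower markers included the collagenase gene Mmp8, with 9.67 ± 3.49 CPM in Asrij high, against 79.4 ± 43.2 CPM in Asrij low (-3.04 ± 0.49, adjusted p = 0.00218), Mmp9 (-3.21) and Retnlg (-3.47). The most abundant, the secondary granule gene Ngp, was at 0.79 ± 0.69 (adjusted p = 0.407). The number lower was 2 without Asrij high replicate 1 and 3 without replicate 2, where Mmp9 lost its call (adjusted p = 0.0803 and 0.0534). The summed level of all 15 late neutrophil markers was 1331 to 7100 CPM in Asrij high, against 1060 to 4512 CPM in Asrij low.

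Markers of other cells moved with the same contrast, and their part in the values above was not tested. Their counts, here and below, stand beside 21.7% of all genes tested called higher and 17.7% lower. Of 16 tested monocyte, macrophage and dendritic markers 7 were lower and 1 higher (summed level 137 to 182 CPM in Asrij high, against 101 to 295 CPM in Asrij low, with Xcr1 at 0 in all libraries). C1qa (-3.60), C1qc (-3.93) and Csf1r (-1.74) were lower and Ly6c2, a marker of classical monocytes and their progenitors, was higher (2.32 ± 0.57, adjusted p = 0.0145). The number higher was 0 without Asrij high replicate 1, 2 or 3, where Ly6c2 was not called (adjusted p = 0.111, 0.0671 and 0.0621), and 2 without Asrij low replicate 3. Csf1r lost its call without Asrij high replicate 1 or 3 or Asrij low replicate 1 or 3 (0.0529 to 0.124) and was at -0.97 without the last.

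Of 10 tested mast cell, basophil and eosinophil markers 6 were lower, among them Prg2 (-1.74), Epx (-2.06) and Cpa3 (-3.28), at summed levels of 38.2 to 85.3 CPM in Asrij high, against 119 to 263 CPM in Asrij low, with Mcpt4 and Tpsb2 at 0 in Asrij high. That number was 1 without Asrij high replicate 1, 2 without Asrij high replicate 3 and 3 without Asrij high replicate 2 or Asrij low replicate 2. The calls of Prg2, Epx and Cpa3 were each lost without Asrij high replicate 1 (adjusted p = 0.254, 0.217 and 0.0698), those of Prg2 and Epx also without Asrij high replicate 2 or 3 or Asrij low replicate 1 or 3 (0.0508 to 0.188), and that of Cpa3 without Asrij low replicate 2 (-2.17, 0.0554).

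Of 15 erythroid and megakaryocyte markers 6 were higher, among them Car1 (4.05 ± 0.21, adjusted p = 1.09e-04), Car2 (1.44) and Tfrc (2.86). The megakaryocyte and platelet genes Pf4 (1.25), Itga2b (-0.58), Gp1bb (-0.04), Gp9 (-0.91) and Ppbp (-1.74) were not called. Gp9 was called lower in 10 of 15 alternatives. The late erythroid genes Hba-a1 (-3.05), Hbb-bt (-2.85) and Alas2 (-3.08) were lower. The summed level of all 15 markers, which mixes the higher and the lower genes, was 4762 to 6757 CPM in Asrij high. In Asrij low it was 6509 to 40225 CPM, highest in Asrij low replicate 3. The 3 late genes lost their calls without Asrij high replicate 1, 2 or 3 (adjusted p = 0.0611 to 0.134), so that none of the list was called lower without replicate 1 or 3, and were at -1.98, -1.88 and -2.0 without Asrij low replicate 3.

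Of 14 tested lymphoid and plasma cell markers 10 were lower, among them Cd79b (-1.96), Ighm (-1.59) and Igkc (-4.64), at 48.0 to 96.9 CPM in Asrij high, against 138 to 285 CPM in Asrij low when summed. Nkg7, the most abundant, was at 0.55 ± 0.36 (adjusted p = 0.245). It alone gave 47.8, 64.2 and 26.0 CPM of the summed levels in Asrij high (replicates 1 to 3). In Asrij low it gave 36.9, 37.9 and 19.0 CPM. Without Asrij low replicate 3 Ighm was at -0.96 and Igkc at -2.71, and both lost their calls without Asrij high replicate 1 or 3 (0.0636 to 0.112), Igkc also without replicate 2 (0.0966). Of 9 stromal and endothelial markers 8 were lower, among them Cxcl12 (-4.30), Col1a1 (-4.26) and Pecam1 (-1.77), at 24.0 to 49.1 CPM in Asrij high, against 176 to 688 CPM in Asrij low when summed. That number was 5 without Asrij high replicate 1, where Cxcl12 was not called (adjusted p = 0.0758). Pecam1 alone gave 12.3, 36.7 and 19.2 CPM of the stromal and endothelial sums in Asrij high (replicates 1 to 3). In Asrij low it gave 76.6, 82.4 and 73.7 CPM.

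Of 12 LT-HSC markers 11 were lower, among them Kit, Meis1 (-1.91) and Hlf (-2.62), and Hlf had 18.1, 86.4 and 49.9 CPM in Asrij high, against 286, 340 and 320 CPM in Asrij low. All 8 proliferation markers were higher, among them Mki67 (2.81), Top2a (3.01) and Pcna (1.94), at summed levels of 3077 to 4699 CPM in Asrij high, against 528 to 799 CPM in Asrij low. Thus the libraries with the higher granule gene levels also had lower stem cell markers and higher proliferation markers than the Asrij low libraries. Within Asrij high the order differed, since replicate 2, with the highest granule gene levels, had the highest summed stem cell markers (851 CPM, against 476 and 511) and the lowest summed proliferation markers (3077 CPM, against 4293 and 4699).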

How the data were processed

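Bulk RNA-seq of 3 Asrij high and 3 Asrij low libraries was analysed from the deposited table of raw read counts per gene symbol, which the authors did not normalize. Per the labels' protocols, ribosomal RNA was depleted and a directional kit was used, whereas the molecule field names polyA RNA. The submitters' processing notes name the genome mm10 and the tools Subread, SAMtools, HISAT2 and FastQC. Tool versions, gene annotation and counting options (strand, multiply mapped reads) are not stated in what was used here.

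Counts were tested in R 4.3.3 with the quasi-likelihood test of edgeR 4.0.16 (TMM factors, robust, no covariate beside group), for genes that filterByExpr kept (minimum count 10, minimum total count 15), with Benjamini-Hochberg adjustment over 21445 genes and a threshold of 0.05. The SE was derived from the test statistic, and 95% intervals use the t quantile of the fit. Alternatives used other scalings and filters, DESeq2 1.42.0, limma 3.58.1 (voom), a replicate block and each library left out.

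The 10 genes and the 13 other lists were chosen with earlier results of these data known, and lists were described by counts and medians, with no test. From each other list, up to 3 higher and 3 lower genes with the highest mean CPM were named, with the most abundant marker, and some genes that this rule takes in are not reported here. Genomic neighbours are the nearest protein-coding RefSeq gene on each side. Genes called most alike have the highest Pearson correlation of log2 CPM (prior count 2). Coordinates and promoter windows are from RefSeq (GRCm38.p6, the assembly behind mm10), and 9 of the 10 genes had a window. Transcript lengths are those of the GENCODE M21 principal transcript, and protein identity among the proteases, which had been planned, was not analysed here.

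Library totals ran from 24707012 to 72855125 counts. Replicates of a group differed by more than sampling noise (chi-square of 75.3 to 168 for each degree of freedom). The labels name no separate mice or cultures behind the replicates. P-values therefore reflect only how far these libraries spread, and that spread may be technical. The edgeR steps were tested on simulated data, and a gene that was not called may still differ.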

Additional observations from a re-analysis of the deposited data

How the results depend on the processing

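The direction of all 10 genes was the same in 15 alternatives. Ctsg, Prtn3, Ms4a3 and Gfi1 kept their calls in all of them, at log2 4.05 to 4.90, 1.90 to 2.51, 3.61 to 4.07 and 0.94 to 1.39. The number of the 10 genes called higher was 7 in the main test and 4 to 7 with 1 library left out, lowest without Asrij high replicate 1. The number called lower was 1 in the main test, 0 with no filter on low counts, 2 with 1 library of each group left out together (Asrij high replicate 2 and Asrij low replicate 3, chosen after seeing the data), and 0 to 2 with 1 library left out. Over all genes, 2346 to 3752 were called lower with 1 library left out, against 3797 in the main test, and 2346 was the value without Asrij high replicate 1. With library totals or upper quartile factors 40.2% and 39.9% of calls were higher, against 55.1% with TMM factors, and a stricter filter moved the median of all genes by -0.12. The summed share of the granule genes, Asrij high minus Asrij low, was 0.191 percentage points and 0.0623 without Mpo. The causes were not tested, beyond the fewer samples or genes in these fits.

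Deviations of same-numbered libraries from their group means correlated at 0.01, 0.05 and 0.22 (replicates 1 to 3). Those of differently numbered libraries correlated at -0.16 to 0.1. The numbers were not taken as a pairing, but so few values cannot exclude one. With the replicate number as a block, 6 of the 10 genes were called higher and 1 lower, with 4475 and 3613 over all genes, Elane was not called (adjusted p = 0.0502), and 1 NADPH oxidase gene and 3 late neutrophil markers were called higher, against 0 in the main test. Depth limits the value of Lpo, which had 0 counts in Asrij low replicate 2.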
